A study of Mus musculus with 4 samples.

Results

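Gene expression was compared between fetal mouse tissue labelled hippocampus and tissue labelled forebrain, both after ethanol given to the dams. The comparison rests on 2 of the 4 arrays of the series, 1 for each tissue, and was chosen by the array titles. C57BL/6J dams were given 2.9 g of ethanol per kg body weight daily into the stomach, dissolved to 15% (v/v), for 5 days from embryonic day 8 to 12, and tissue was taken on embryonic day 18. The other arrays hold the same tissues of the same age after phosphate-buffered saline (PBS) on the same days, and they serve here as a second, separate pair. Each difference is the deposited log2 value of hippocampus minus that of forebrain, so that 1 on this scale is 2-fold. Of 19938 genes with a probe set of a single gene symbol, 11013 passed a filter on low values (mean over the 4 arrays of at least 7.11) and are described here. With 1 array a tissue the ethanol difference has no replicate check and no p-value. The labels give neither pooling of embryos nor litters, so a difference between litters cannot be told apart from one between tissues.

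The hippocampus forms at the medial edge of the cortical plate, next to the cortical hem, a source of Wnt and bone morphogenetic protein signals. The rest of the forebrain holds, among others, the neocortex and the striatum. Striatal projection neurons are GABAergic cells that arise in the lateral ganglionic eminence, and retinoic acid signalling takes part in their differentiation. The meninges, which cover the whole brain and make retinoic acid in the fetus, can remain on tissue or be stripped from it during dissection.

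Hippocampal genes did not set the array labelled hippocampus apart. Of 24 genes listed as markers of hippocampal fields and the dentate gyrus, 20 were kept, 7 higher and 13 lower in the array labelled hippocampus, at a median difference of -0.10 where the median of all kept genes was -0.06. The members lay evenly about that median, 10 above and 10 below it. The list's median was 0.10 under a filter at the 75th percentile of levels, so its sign is not settled. On the PBS arrays the median was 0.02, with 11 of the 20 higher. No member was 1.5-fold apart after ethanol, a size that few genes reached at all (0.154% of kept genes upward and 0.536% downward), so this count says nothing particular to the list. Prox1, the transcription factor gene of dentate granule cells, read 8.26 in hippocampus and 8.59 in forebrain, and Lef1, a Wnt effector needed for the dentate gyrus, read 7.59 and 7.72. Zbtb20, a repressor that specifies hippocampal pyramidal neurons, read 10.72 and 10.49, and Meis1 at 9.09 against 8.56 was the highest of the list. Meis1 is expressed in other forebrain regions too. The dentate genes Dsp and Tdo2 were below the filter on all arrays. In the text that follows, hippocampus and forebrain name the labels of the arrays. In bulk tissue, fewer cells of a type and less RNA per cell cannot be told apart.

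The widest differences on the higher side were those of nuclear receptor genes of the retinoid system, Rxrg and Rarb, so the start regions of genes of that system are shown first. Rarb encodes retinoic acid receptor beta, whose promoter is a textbook target of retinoic acid through a direct repeat of receptor half-sites 5 bases apart (DR5 element). Windows from 250 bases before to 50 bases after each gene start were taken from RefSeq (GRCm38.p6) and searched on both strands for 2 half-sites in direct repeat with any 5 bases between them. A half-site was counted if it read AGGTCA in its common form, AGTTCA as a variant of it, or GGGTCA and likewise GGTTCA with another first base. The motif stood in 0.0974% of all 32851 windows. Among 15 genes of the retinoid list with a window it stood in Rarb and in Cyp26a1, the retinoic acid degrading enzyme gene. Among the 14 genes with a window that were 1.5-fold higher in hippocampus it stood in Rarb, and among 47 that were 1.5-fold lower it stood in 0. The start region of Rarb (chr14:16575427-16575726, minus strand), that of Cyp26a1 (chr19:37697558-37697857, plus strand) and the more upstream of the windows of Rxrg (chr1:167598112-167598411, plus strand) are printed here because these genes read differently despite their shared pathway. Capitals mark the DR5 match, which begins 53 bases before the start site in Rarb and 32 bases before it, on the opposite strand, in Cyp26a1.
Rarb: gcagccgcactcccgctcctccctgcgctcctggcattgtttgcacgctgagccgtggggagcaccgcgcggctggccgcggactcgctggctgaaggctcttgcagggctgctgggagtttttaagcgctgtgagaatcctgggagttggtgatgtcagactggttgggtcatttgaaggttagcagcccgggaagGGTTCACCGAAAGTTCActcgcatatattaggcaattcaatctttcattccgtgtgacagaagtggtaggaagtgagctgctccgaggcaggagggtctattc
Cyp26a1: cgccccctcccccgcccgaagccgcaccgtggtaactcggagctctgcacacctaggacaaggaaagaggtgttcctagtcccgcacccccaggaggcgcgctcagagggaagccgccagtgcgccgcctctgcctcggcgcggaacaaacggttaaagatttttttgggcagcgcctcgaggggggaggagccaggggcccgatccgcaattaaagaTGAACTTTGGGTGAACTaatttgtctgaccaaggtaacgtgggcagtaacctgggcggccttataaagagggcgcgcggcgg
Rxrg: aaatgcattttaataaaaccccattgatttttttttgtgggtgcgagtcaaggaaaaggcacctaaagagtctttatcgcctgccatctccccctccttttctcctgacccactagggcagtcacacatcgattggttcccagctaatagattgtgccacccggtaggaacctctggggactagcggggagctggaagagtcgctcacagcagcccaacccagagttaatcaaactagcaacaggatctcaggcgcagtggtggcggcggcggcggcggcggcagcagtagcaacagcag
No DR5 match was found in either window of Rxrg. Such a match is a description of these letters only.

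Genes of the striatum led the genes that were higher in hippocampus after ethanol. Rxrg, a retinoid X receptor gene expressed in striatum, read 9.52 in the ethanol hippocampus and 8.12 in the ethanol forebrain, against 8.86 and 8.51 after PBS. The ethanol hippocampus array was the highest of the 4 and the ethanol forebrain array the lowest, and the ethanol difference of 1.40 amounts to 2.64-fold. Rarb read 9.48 and 8.31 after ethanol and 8.76 and 8.51 after PBS, in the same order of arrays and 2.26-fold apart after ethanol. Ebf1, a transcription factor gene of striatonigral neurons, read 9.91 and 8.77 after ethanol and 9.37 and 8.81 after PBS. Both hippocampus arrays lay above both forebrain arrays for Ebf1. Nexn, an actin filament binding protein gene, completed the 2-fold group with 7.68 and 6.64 after ethanol and 7.45 and 6.71 after PBS. Nexn passed the filter through its hippocampus arrays, since both forebrain readings were under 7.11. These 4 genes were the only kept genes at least 2-fold higher (0.0363%), and the count was 4 too with arrays centred on their medians and after quantile normalization.

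**Figure D1:**
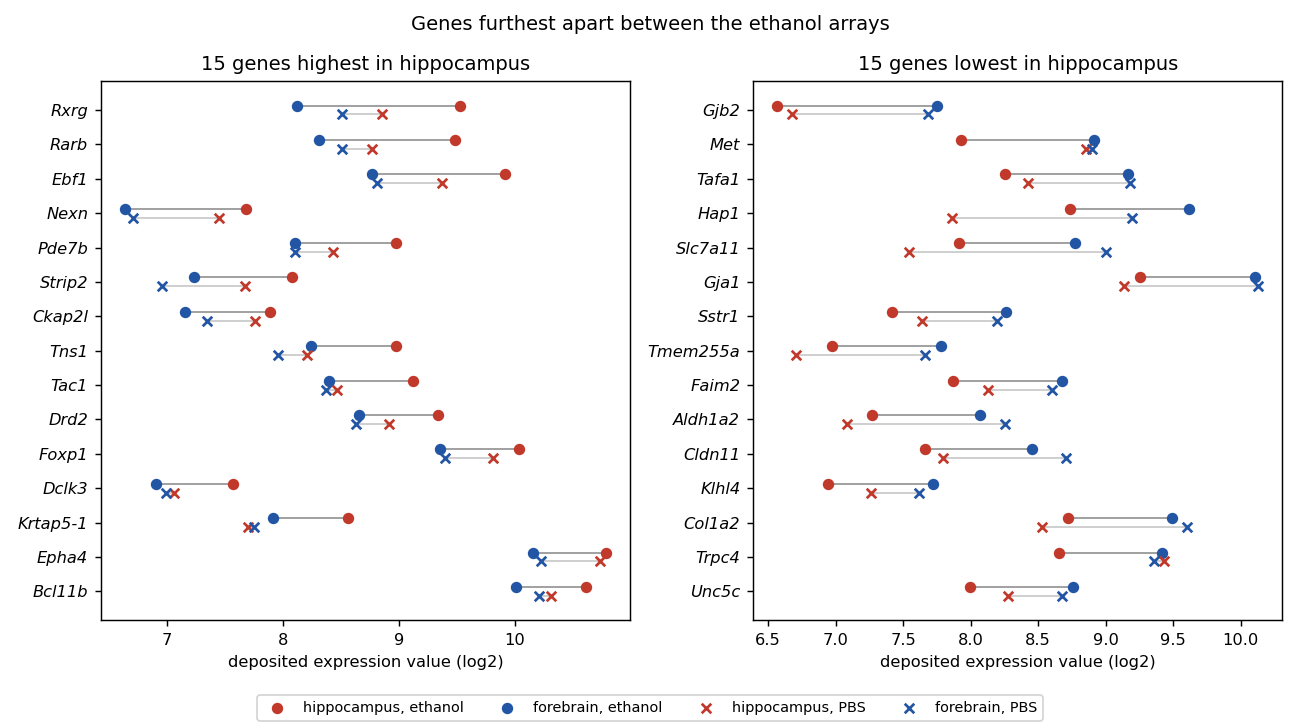
Deposited log2 value (x axis) of the 15 genes highest and the 15 lowest in hippocampus relative to forebrain on the ethanol arrays (rows), 1 point an array, with no error bars because each group has 1 array. Red marks are hippocampus and blue marks forebrain, filled circles are ethanol arrays and crosses PBS arrays, and a grey line joins the tissues of a treatment. For Rxrg, Rarb and Ebf1 the ethanol hippocampus point stands at 9.52, 9.48 and 9.91, to the right of the other points of its row, whereas the hippocampus points of Met after PBS (8.85) and after ethanol (7.93) lie apart.

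The striatal list as a whole read higher. Of 24 listed genes, 22 were on the array with a single symbol and 20 were kept, 17 higher and 3 lower in hippocampus after ethanol, where 30.4% of all kept genes were higher. The median of the list was 0.40, and its mean level was 9.12 in hippocampus and 8.65 in forebrain. On the PBS arrays the mean levels were 8.79 and 8.71, and the median difference was 0.10 with 13 genes higher, where 52.4% of all kept genes were higher. The median of all kept genes was -0.06 after ethanol and 0.01 after PBS. For 19 of the 20 striatal genes the ethanol difference exceeded the PBS difference. This excess was not tested, because each pair is a single difference. The list was chosen with earlier results of these data known, and it holds Rxrg, Rarb and Ebf1. Its counts are therefore not independent evidence of its direction.

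Single members showed how broad the difference was. Tac1, the precursor gene of substance P, read 9.12 in the ethanol hippocampus and 8.40 in the ethanol forebrain. The other 3 readings of Tac1 lay between 8.38 and 8.46. Drd2, the dopamine D2 receptor gene of striatopallidal neurons, read 9.34 and 8.66, and Drd1, the D1 receptor gene of striatonigral neurons, read 8.73 and 8.42. The transcription factor genes Foxp1 (10.03 and 9.36), Bcl11b (10.61 and 10.01), Meis2 (11.73 and 11.19), Isl1 (9.26 and 8.76) and Zfp503 (7.91 and 7.51) were all higher in hippocampus. Markers of both striatal output classes stood higher, by 0.68 for Drd2 and 0.31 for Drd1. Penk, the enkephalin precursor gene, read 9.43 and 9.11 after ethanol but 8.81 and 9.04 after PBS, so that its tissue order was opposite in the pairs. Bcl11b is also a gene of deep-layer cortical neurons, and Ebf1 stands on the Cajal-Retzius list as well.

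Some members did not share this. Adcy5, the adenylyl cyclase of striatal neurons, differed by -0.30, and Rasgrp2, a Rap exchange factor gene, by -0.32. Rgs9, a regulator of dopamine receptor signalling, read 8.71 in both tissues. Among members below the filter, the transcription factor gene Ikzf1 read 7.67 in the ethanol hippocampus and 6.43 in the ethanol forebrain, and 7.37 and 6.73 after PBS, while the dynorphin precursor gene Pdyn read 7.11 in both ethanol tissues. The tissues were also compared in limma, a linear model over both treatments with moderated variances. Treatment was a term of the model, and Benjamini-Hochberg adjustment covered all kept genes. In this limma fit Foxp1 (adjusted p = 0.0383) and Ebf1 (adjusted p = 0.0384) rose in hippocampus among the 20. The other 18 did not pass, where 0.109% of all kept genes rose. Rxrg had an adjusted p of 0.114 and Rarb of 0.131 in the same limma fit, whose error is the difference of the tissue effect between treatments.

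**Figure D2:**
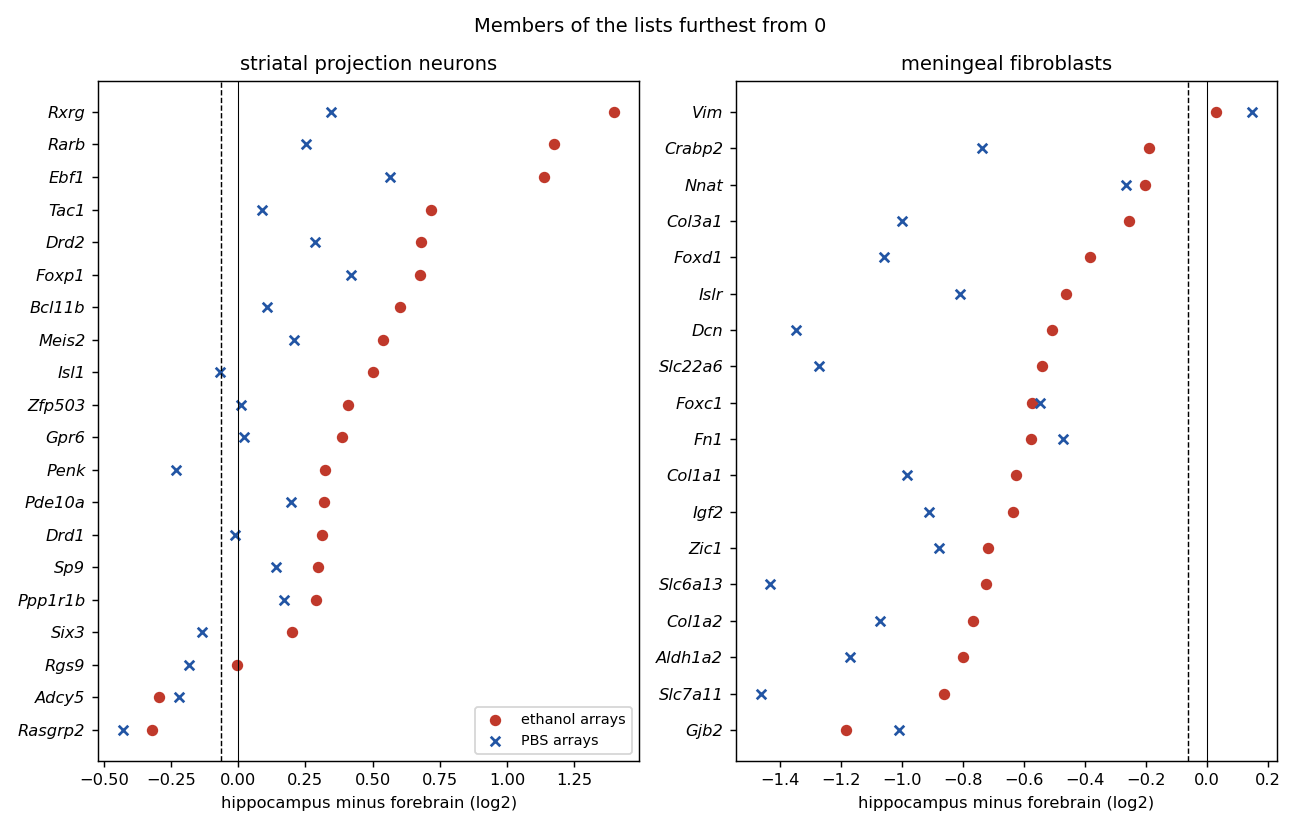
Hippocampus minus forebrain difference on the log2 scale (x axis) for each kept gene (rows) of the striatal projection neuron list and the meningeal fibroblast list, with red circles for the ethanol arrays, blue crosses for the PBS arrays and a dashed line at the median of all kept genes after ethanol (-0.06). In the striatal panel 19 of 20 circles lie to the right of their crosses, and in the meningeal panel 17 of 18 circles lie below 0.

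The retinoid list itself did not move one way. Of 19 listed genes 13 were kept, 5 higher and 8 lower, with a median of -0.04, where 30.4% of all kept genes were higher. Besides Rxrg and Rarb, the cellular retinoic acid binding protein gene Crabp1 was 1.5-fold higher, at 9.43 and 8.84 after ethanol and 9.25 and 9.02 after PBS. Aldh1a2, the meningeal enzyme that makes retinoic acid, lay on the other side, with 7.27 and 8.07 after ethanol and 7.09 and 8.26 after PBS. Both hippocampus arrays read below both forebrain arrays, and limma gave Aldh1a2 a Benjamini-Hochberg adjusted p of 0.0175. The remaining receptor genes Rara, Rarg, Rxra and Rxrb differed by -0.09, -0.05, -0.02 and -0.05. Cyp26a1, the other list gene with a DR5 match, was below the filter and read 5.61 and 5.70, and its relative Cyp26b1 read 7.46 and 7.42. Genes of retinoic acid receptors, synthesis and breakdown thus stood at different points of the range. The list's median was 0.88 under a filter at the 75th percentile of levels, which drops the dimmer members.

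Several further genes were also higher. Pde7b, a cyclic AMP phosphodiesterase gene, read 8.98 and 8.10 after ethanol and 8.43 and 8.10 after PBS. Strip2, a subunit gene of the striatin-interacting phosphatase and kinase complex, read 8.08 and 7.24 after ethanol and 7.67 and 6.96 after PBS. Nexn and Strip2 were the only kept genes 1.5-fold higher in both pairs (0.0182%). Both rose in limma, by 0.89 (SE 0.101, Benjamini-Hochberg adjusted p = 0.019) and by 0.78 (SE 0.0866, adjusted p = 0.0179). Both forebrain readings of Nexn and the PBS forebrain reading of Strip2 were under 7.11, the level of the filter. Ckap2l, a mitotic spindle protein gene, read 7.89 and 7.15. Dclk3, a doublecortin-like kinase gene, read 7.57 and 6.91 after ethanol and 7.06 and 6.99 after PBS. Dclk3 passed the filter only through its ethanol hippocampus array, since its other readings were under 7.11. Epha4, an ephrin receptor gene, read 10.79 and 10.15 after ethanol and 10.73 and 10.23 after PBS, and it rose in limma (adjusted p = 0.0175). Tns1, a focal adhesion gene, was higher by 0.73 on its brightest probe set, but only 2 of its 6 probe sets were above 0. Krtap5-1, of a hair keratin-associated family whose members are near-identical, differed by 0.65, and its probe set may not separate the copies.

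Dividing cells' genes were higher by smaller amounts. Of 28 cell cycle genes 25 were kept. After ethanol 22 were higher in hippocampus (median 0.19), where 30.4% of all kept genes were. All 25 were higher on the PBS arrays (median 0.31), where 52.4% of all kept genes were. For 21 of them both hippocampus arrays lay above both forebrain arrays, an arrangement found in 13.4% of all kept genes. Mki67, the proliferation antigen gene, read 8.70 and 8.25 after ethanol and 8.88 and 8.43 after PBS, and it was the only list member to rise in limma (adjusted p = 0.0472). Top2a, the replication topoisomerase gene, read 9.42 and 9.11 with both of its probe sets higher, Ccnb2, a mitotic cyclin gene, 8.45 and 8.11, and Kif11, a spindle motor gene, 8.49 and 8.16. Outside the list, and named after their values were seen, the histone H1 gene H1f5 rose in limma by 0.50 (adjusted p = 0.0179), the chromatin protein gene Hmgb2 by 0.46 (adjusted p = 0.0382) and Cdca7, a cell division gene, by 0.48 (adjusted p = 0.0372). Radial glia and progenitor genes had a median of 0.03 after ethanol, with 12 of 20 higher, where 30.4% of all kept genes were. After PBS 15 were higher (median 0.17), where 52.4% of all kept genes were.

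The lower side was longer in the deposited values, and 8 of its genes were on the meningeal list. After ethanol 59 genes were at least 1.5-fold lower in hippocampus (0.536%) and 17 at least 1.5-fold higher (0.154%). That split depended on the scaling, since centring each array on its median gave 31 lower and 32 higher, and quantile normalization gave 48 and 19. Gjb2, a connexin gene of meningeal cells, was the only gene at least 2-fold lower (0.00908%), with 6.57 in hippocampus and 7.75 in forebrain after ethanol and 6.68 and 7.69 after PBS. Gjb2 passed the filter through its forebrain arrays, since both hippocampus readings were under 7.11. Both hippocampus arrays lay about as far below both forebrain arrays, and Gjb2 fell in limma by 1.10 (SE 0.0899, Benjamini-Hochberg adjusted p = 0.0175). The next lowest after ethanol were Met (-0.98), Tafa1 (-0.91) and Hap1 (-0.89), which are not on the meningeal list.

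Meningeal genes were lower almost throughout. Of 26 listed genes 18 were kept, 17 of them lower and 1 higher, where 69.6% of all kept genes were lower, and 8 were 1.5-fold lower. The median was -0.58, with a mean level of 8.45 in hippocampus and 9.01 in forebrain. On the PBS arrays the median was -0.99 and the mean levels were 8.21 and 9.12. All 17 genes that were lower after ethanol had both hippocampus arrays below both forebrain arrays, as did 28.9% of all kept genes. In limma with Benjamini-Hochberg adjustment 13 of the 18 fell and 0 rose, where 1.02% of all kept genes fell and 0.109% rose. An earlier look at these data had shown several of these genes to be lower over both treatments, so the list is not independent evidence of its direction. Foxc1 and Gjb2 passed the filter only through the forebrain arrays. Of its 8 members below the filter, the transcription factor gene Foxc2 (6.60 and 7.36 after ethanol), the small proteoglycan genes Lum (5.89 and 6.61) and Ogn (6.50 and 7.21) and the connexin gene Gjb6 (6.59 and 7.22) read lower in hippocampus. The cadherin gene Cdh1 and the transcription factor gene Twist1 both differed by -0.18, and the transporter genes Slc47a1 and Slc16a11 by 0.12 and 0.02.

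The meningeal difference was smaller after ethanol than after PBS for 14 of the 18 kept genes. The median of all kept genes was -0.06 after ethanol and 0.01 after PBS. Slc6a13, a GABA transporter of the meninges, read 8.07 and 8.80 after ethanol but 7.49 and 8.92 after PBS. Slc7a11, the cystine transporter gene, read 7.91 and 8.77 after ethanol and 7.54 and 9.01 after PBS. Dcn, the decorin gene of fibroblasts, read 8.71 and 9.22 after ethanol and 7.99 and 9.33 after PBS, and Col3a1, a fibrillar collagen gene, read 8.60 and 8.86 and then 8.10 and 9.10. For these 4 genes the ethanol hippocampus lay between the PBS hippocampus and both forebrain arrays. Col1a2, a type I collagen gene, read 8.72 and 9.49 after ethanol and 8.53 and 9.60 after PBS. In contrast, the fibronectin gene Fn1 differed by -0.58 after ethanol and -0.47 after PBS, and the transcription factor gene Foxc1 by -0.58 and -0.55. Whether the treatments differ in this was not tested.

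Genes of cells that accompany the coverings were lower as well. Mrc1, the mannose receptor gene of border macrophages, read 7.25 and 7.98 after ethanol and 6.97 and 8.13 after PBS, and Lyve1, a hyaluronan receptor gene of the same cells, read 6.94 and 7.46. Named after their values were seen, F13a1, a coagulation factor gene expressed by macrophages, read 7.64 and 8.38, and Dab2, an endocytic adaptor gene, read 7.83 and 8.57, where 1 of 2 probe sets of Dab2 was above 0. Other members of the microglia and macrophage list varied. Cx3cr1, the fractalkine receptor gene, read 7.75 and 7.88, and Csf1r, the growth factor receptor gene of macrophages and microglia, 7.43 and 7.67. The complement gene C1qc read 7.11 and 7.73, a wider difference than that of Lyve1, and Trem2 was higher, at 7.46 and 7.20. Below the filter, the macrophage gene Pf4 read 6.41 and 6.96, and Cd163 read 5.94 in both ethanol tissues. The parenchymal marker genes P2ry12 and Tmem119 were below the filter. Of 18 genes of microglia and macrophages 9 were kept and 8 were lower, where 69.6% of all kept genes were lower. Mrc1, C1qc and Lyve1 fell in limma (adjusted p = 0.0208, 0.0423 and 0.0382), where Lyve1 passed the filter only through its forebrain arrays. All 12 kept endothelial genes were lower, within a narrow range of -0.31 to -0.11, where 69.6% of all kept genes were lower. In limma 0 of the 12 passed, with 8 at an unadjusted p below 0.05. Of all 11013 kept genes, 1306 were lower and 360 higher at that unadjusted level in limma. Cldn5, the tight junction gene of brain vessels, read 8.69 and 8.95. The connexin gene Gja1, of astrocytes and meningeal cells, read 9.26 and 10.11 after ethanol and 9.13 and 10.13 after PBS, while the other kept astrocyte genes ranged from -0.24 for the growth factor receptor gene Fgfr3 to 0.12 for the lipoprotein gene Apoe, with Mlc1 at -0.18, Slc1a3 at -0.14 and Aqp4 at 0.05. Cldn11, a claudin gene of the arachnoid barrier and of myelin, read 7.66 and 8.45, and Mbp, the myelin basic protein gene, read 7.23 and 7.43. The part of these cells in other differences was not tested.

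Zic genes formed a block on the lower side. These zinc finger transcription factor genes are expressed in the septum, in medial forebrain and in the meninges. Zic1 read 9.41 and 10.13 after ethanol and 9.03 and 9.91 after PBS, Zic2 read 8.03 and 8.77 after ethanol, and Zic5 read 7.68 and 8.32 with both of its probe sets lower. Zic4 differed by -0.58, with 1 of its 2 probe sets above 0. Both hippocampus arrays lay below both forebrain arrays for all 4, and all 4 fell in limma (adjusted p = 0.0175, 0.0175, 0.028 and 0.0299 for Zic1, Zic2, Zic5 and Zic4). Among other septal and basal forebrain genes, the cholinergic transcription factor gene Lhx8 also had both hippocampus arrays below both forebrain arrays, at -0.15 after ethanol and -0.62 after PBS. The vesicular acetylcholine transporter gene Slc18a3 differed by 0.02 and the nerve growth factor receptor gene Ngfr by 0.09 after ethanol, and by -0.12 and -0.18 after PBS. Trpc4, a cation channel gene of the lateral septum, read 8.66 in the ethanol hippocampus and 9.36 to 9.44 on the other arrays. The median of the 10 kept members was -0.41, and Zic1 also stands on the meningeal list.

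Several lower genes were low on the ethanol hippocampus array alone. Met, the hepatocyte growth factor receptor gene, read 7.93 there and 8.85 to 8.92 on the other arrays, a difference of -0.98 after ethanol and -0.05 after PBS. Ntsr1, a neurotensin receptor gene of layer 6 neurons, read 7.48 there and 8.22 to 8.38 elsewhere. Wnt7b, a Wnt ligand gene, read 7.58 there and 8.25 to 8.45 elsewhere, and Ndrg1, a stress-responsive gene of glia, read 9.06 there and 9.70 to 9.74 elsewhere. These genes, with Trpc4, did not pass in limma. Their adjusted p-values in limma were 0.256 for Met, 0.382 for Ntsr1, 0.464 for Wnt7b, 0.281 for Ndrg1 and 0.401 for Trpc4. That fit counts a difference of the tissue effect between treatments as error. Genes picked for 1 low array could thus hardly pass, so this is no test of their ethanol difference. Ndrg1 was chosen after its values were seen.

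Genes of cortical excitatory neurons were lower after ethanol about as often as all kept genes, of which 69.6% were lower. Of 15 kept upper-layer genes 12 were lower, at a median of -0.26, against a PBS median of 0.05. Rasgrf2, a Ras exchange factor gene of upper layers, read 7.22 and 7.89 after ethanol and 7.19 and 7.63 after PBS, and it was the only member to fall in limma (adjusted p = 0.0471). Unc5d, a netrin receptor gene of upper-layer precursors, read 8.65 and 9.17 after ethanol and 9.21 and 9.16 after PBS, with both probe sets lower after ethanol, and the homeobox gene Cux2 differed by -0.38 after ethanol and 0.18 after PBS. Deep-layer and subplate genes had 14 of 20 members lower (median -0.12), among them Nr4a2 at 8.63 and 9.19, Sox5 at 9.19 and 9.70 and the calmodulin-binding protein gene Nrgn at 7.92 and 8.59, and Nrgn fell in limma (adjusted p = 0.0346). Against these, Bcl11b, Foxp2 (9.60 and 9.16) and the synaptotagmin gene Syt6 (8.35 and 7.98) were higher, and Bcl11b and Foxp2 are expressed in striatum too. Tbr1, a deep-layer factor gene, read 10.53 and 10.68, and Fezf2, the gene of corticospinal neuron fate, 9.04 and 9.15. The upper-layer median was -0.08 under the 75th percentile filter.

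Regulators of the dorsal pallium, the cortical and hippocampal germinal zone, read differently in the treatments. After ethanol 12 of 16 were lower (median -0.10), near the 69.6% of all kept genes. After PBS 14 of 16 were higher (median 0.30), where 52.4% of all kept genes were higher. For 15 of the 16 the ethanol difference was below the PBS difference. The median of all kept genes was lower after ethanol too, at -0.06 against 0.01 after PBS. How many of all kept genes had that order was not counted. Neurod6, a neuronal factor gene of cortex and hippocampus, read 10.73 and 10.79 after ethanol and 11.29 and 10.81 after PBS. Neurog2, a proneural gene, read 7.92 and 7.94 and then 8.53 and 8.07, and Eomes, of intermediate progenitors, 8.70 and 8.73 and then 9.18 and 8.71. Lhx2, a selector gene of cortex, read 9.55 and 9.88 and then 10.21 and 9.94. In these 4 genes the PBS hippocampus was the highest array. Dach1, at 9.43 and 8.90 after ethanol, was the highest member, ahead of Neurod1 at 0.05. In limma, where a difference between treatments counts as error, 0 of the 16 passed, with 3 at an unadjusted p below 0.05. The 10 kept genes of the cortical hem and hippocampal primordium likewise gave 0 calls, with 4 at an unadjusted p below 0.05. Of all 11013 kept genes, 360 were higher and 1306 lower at that unadjusted level in limma. The hem list had a median of -0.21 after ethanol and 0.12 after PBS, with the secreted Wnt inhibitor gene Sfrp2 at 8.41 and 9.05 after ethanol and 8.80 and 8.89 after PBS.

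Synaptic genes were mostly lower. Of 26 kept members 23 were lower after ethanol (median -0.18), where 69.6% of all kept genes were lower. After PBS 20 were lower (median -0.15), where 47.5% of all kept genes were. The vesicular glutamate transporter genes Slc17a7 (8.05 and 8.66 after ethanol, 8.32 and 8.96 after PBS) and Slc17a6 (10.04 and 10.44, 9.76 and 10.21) fell in limma (adjusted p = 0.0244 and 0.0372). So did the synapse organizer gene Cbln1 (adjusted p = 0.0471) and the GABA-A receptor subunit gene Gabra3 (adjusted p = 0.0443). Nrxn3, a presynaptic adhesion gene, was the highest at 10.54 and 10.33. Of 20 kept GABAergic lineage genes 11 were higher after ethanol (median 0.04), where 30.4% of all kept genes were higher. After PBS 7 were higher (median -0.15), where 52.4% of all kept genes were. Within that list the GABA synthesis gene Gad2 (10.62 and 10.24) and the homeobox genes Dlx5 (9.60 and 9.25), Dlx6 and Dlx2 were higher. Interneuron genes of the list went both ways. Sst (9.73 and 9.90), Npy (10.07 and 10.36) and Lhx6 (8.38 and 8.51) were lower. Calb1 (8.46 and 8.28), Erbb4 (10.20 and 10.09) and Sox6 (8.53 and 8.45) were higher. Nr2f2, a transcription factor gene of caudal ganglionic eminence cells, read 9.73 and 10.26 and fell in limma (adjusted p = 0.0203). The somatostatin receptor gene Sstr1 read 7.42 and 8.26 after ethanol and 7.64 and 8.19 after PBS.

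Axon guidance genes spread to both sides, with 13 of 34 higher and a median of -0.10, where 30.4% of all kept genes were higher. Unc5c, a netrin receptor gene, differed by -0.76 after ethanol and -0.40 after PBS. Slit2, a repellent ligand gene, read 8.22 and 8.89 after ethanol and 8.40 and 8.83 after PBS, and Nrp2, a semaphorin receptor gene, read 9.48 and 9.96 after ethanol and 9.24 and 10.09 after PBS. Slit2, Nrp2 and the ephrin ligand gene Efnb3 fell in limma (adjusted p = 0.044, 0.037 and 0.0423). Epha4 was the only member to rise. The Slit receptor genes Robo1 and Robo2 were higher by 0.13 and 0.16. The microRNA gene Mir218-1, which lies within Slit2, was singled out after its values were seen. Its probe set read 6.91 in the ethanol hippocampus, 7.64 in the ethanol forebrain, 7.30 in the PBS hippocampus and 7.63 in the PBS forebrain, a difference of -0.72 after ethanol. Of 92 kept microRNA probe sets, 1 (Mir218-1) was 1.5-fold lower, where 0.536% of all kept genes were. Another 1 was 1.5-fold higher, where 0.154% of all kept genes were. By sign 56 of the 92 were higher, where 30.4% of all kept genes were. Of 28 microRNA genes lying within a kept coding gene, Mir218-1 was the only 1 for which both were 1.5-fold lower. A probe set on the gene does not measure the mature RNA. The mature strand from RefSeq (GRCm38.p6, chr5:48223966-48223986, plus strand) is printed with its seed, bases 2 to 8, in capitals.
mmu-miR-218-5p: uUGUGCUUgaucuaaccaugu
For comparison, Mir483, within Igf2, differed by 0.34 while Igf2 differed by -0.64.

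Imprinted genes were all lower in the deposited values. Of 19 listed genes 15 were on the array with a single symbol, and all 15 were kept. All 15 were lower after ethanol, with a median of -0.30, where 69.6% of all kept genes were lower. That count depends on the scaling, since the member nearest 0 differed by only -0.09. Centring arrays on their medians moved the median of all kept genes from -0.06 to 0.03. After PBS 14 were lower (median -0.34), where 47.5% of all kept genes were. For 14 of the 15 both hippocampus arrays lay below both forebrain arrays, as did 28.9% of all kept genes. The growth factor gene Igf2 read 9.31 and 9.94 after ethanol and 9.10 and 10.01 after PBS, and the Notch-related gene Dlk1 read 8.21 and 8.82. In limma Igf2, Dlk1, Peg10, Mest and Nnat fell (adjusted p = 0.0175, 0.0226, 0.0484, 0.0345 and 0.0472). Igf2 and Nnat also stand on the meningeal list, whose members were lower on the same arrays. Meg3, a maternally expressed long RNA, read 12.19 and 12.27, and the necdin gene Ndn 11.88 and 11.98, the nearest to 0. Hap1, the huntingtin-associated protein gene of hypothalamus and other basal regions, read 8.73 and 9.62 after ethanol and 7.86 and 9.19 after PBS, and it fell in limma by 1.11 (SE 0.11, adjusted p = 0.0175). The 7 kept hypothalamic genes of 23 went both ways around a median of 0.00, from Hap1 to the oxytocin gene Oxt at 0.29. Among those below the filter, the transcription factor gene Fezf1 read 6.51 and 7.54 after ethanol and 6.51 and 7.48 after PBS, and Sim1, a gene of the same class, differed by -0.59. Thalamic and habenular genes had 9 of 11 kept members lower (median -0.20), where 69.6% of all kept genes were lower. Among them, the cadherin gene Cdh6 read 8.57 and 8.98.

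**Figure D3:**
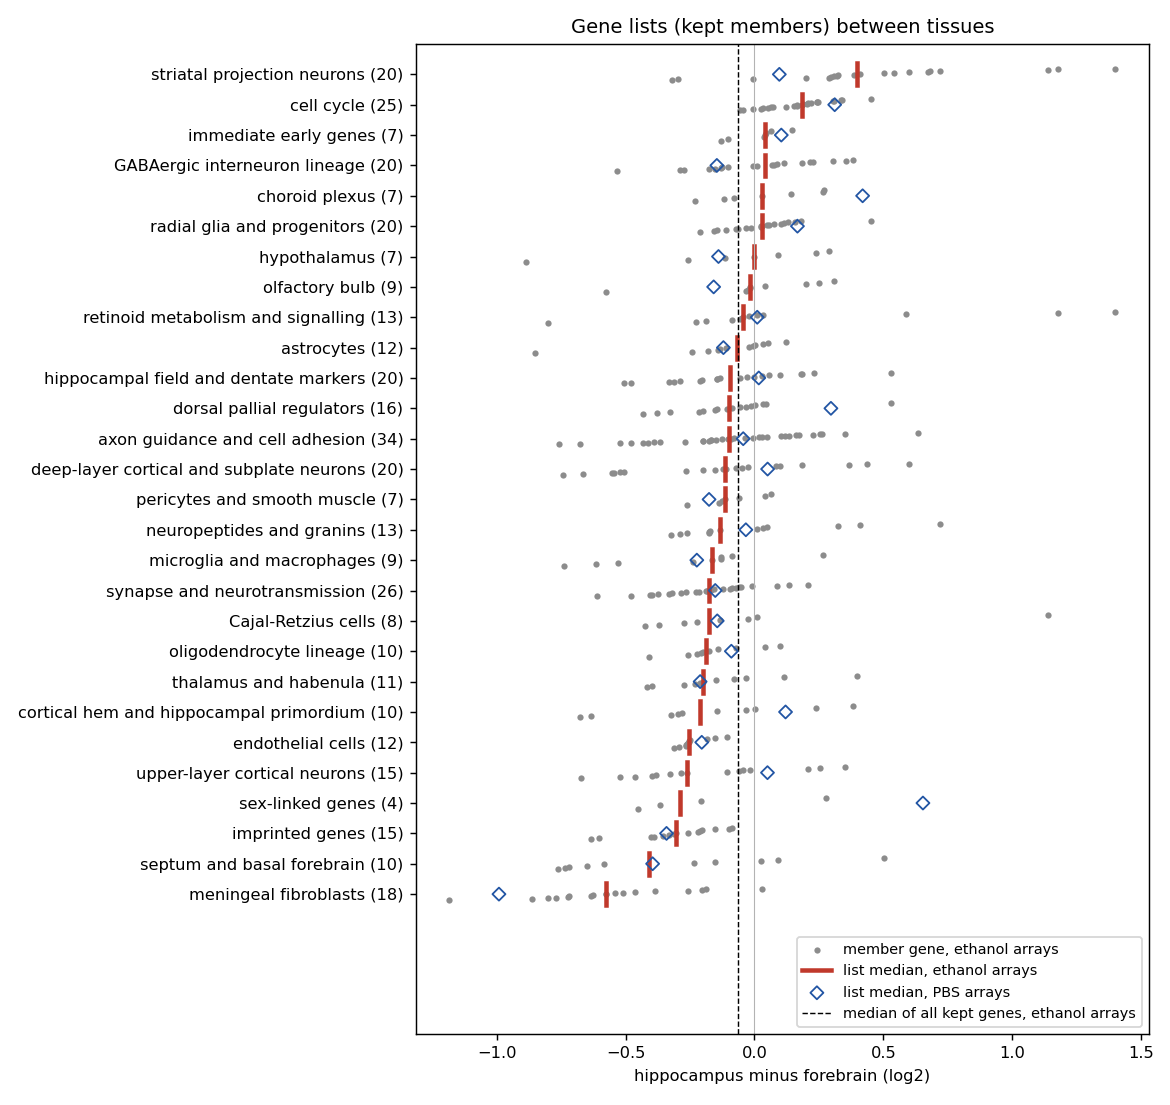
Hippocampus minus forebrain difference on the log2 scale (x axis) for the 28 lists with at least 3 kept genes (rows, number of kept genes in brackets), ordered by their ethanol median. Grey points are genes on the ethanol arrays, red bars the ethanol medians, open diamonds the PBS medians, and the dashed line is the median of all kept genes after ethanol (-0.06). Striatal genes stand at the top (0.40) and meningeal genes at the bottom (-0.58), and the diamonds of dorsal pallial (0.30) and choroid plexus genes (0.42) lie to the right of their bars.

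Genes of the choroid plexus, the epithelium that secretes cerebrospinal fluid, had a median of 0.03 after ethanol and 0.42 after PBS, and Ttr, its transthyretin gene, read 12.37 and 12.11 after ethanol and 12.57 and 12.00 after PBS. Ttr rose in limma (adjusted p = 0.0417). The median was -0.02 for olfactory bulb genes, -0.13 for neuropeptides and granins, 0.04 for immediate early genes, -0.12 for pericytes and smooth muscle, -0.19 for the oligodendrocyte lineage, -0.07 for astrocytes and -0.18 for Cajal-Retzius cells. The neuropeptide gene Nts read 9.82 and 9.42 after ethanol and 9.70 and 9.18 after PBS and rose in limma (adjusted p = 0.0394). All 19 midbrain and hindbrain genes on the array were below the filter, among them En1, En2 and the Hox genes. A single erythroid gene was kept, Alas2 at 7.80 and 7.76. The Y-linked genes Uty, Eif2s3y and Kdm5d differed by -0.45, -0.37 and -0.21 after ethanol and by 0.69, 0.85 and 0.62 after PBS, with the PBS forebrain lowest in each, and the X-inactivation RNA Xist differed by 0.28 and -0.16. The sexes of the embryos are not in the labels, and the part of sex in other differences was not tested.

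The PBS pair, which shares no array with the ethanol pair, had 131 genes 1.5-fold lower in hippocampus (1.19%) and 10 higher (0.0908%). Fewer genes could thus recur on the higher side, so the counts that follow do not rank the directions. Of the 59 genes 1.5-fold lower after ethanol, 30 were 1.5-fold lower after PBS too (0.272% of kept genes), 25 were lower by less and 4 were not lower. Of the 17 genes 1.5-fold higher after ethanol, 2 were 1.5-fold higher after PBS, 14 were higher by less and 1 was not higher. Their median was 0.72 after ethanol and 0.31 after PBS, and that of the lower genes was -0.68 and -0.61. Both groups were chosen on the ethanol values, which by itself favours a larger ethanol difference. Across all kept genes the differences of both pairs had a Pearson r of 0.44 and a Spearman rho of 0.384, and the same sign in 59.6%, where genes are not independent replicates and both tissues of a treatment may share litters. With arrays centred on their medians, 17 genes were 1.5-fold lower in both pairs and 2 were higher. Among the genes of both pairs, Tafa1, a secreted neuronal peptide gene, read 8.25 and 9.16 after ethanol and 8.42 and 9.18 after PBS, and Tmem255a read 6.97 and 7.78 and then 6.70 and 7.66. Tmem255a passed the filter only through its forebrain arrays.

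**Figure D4:**
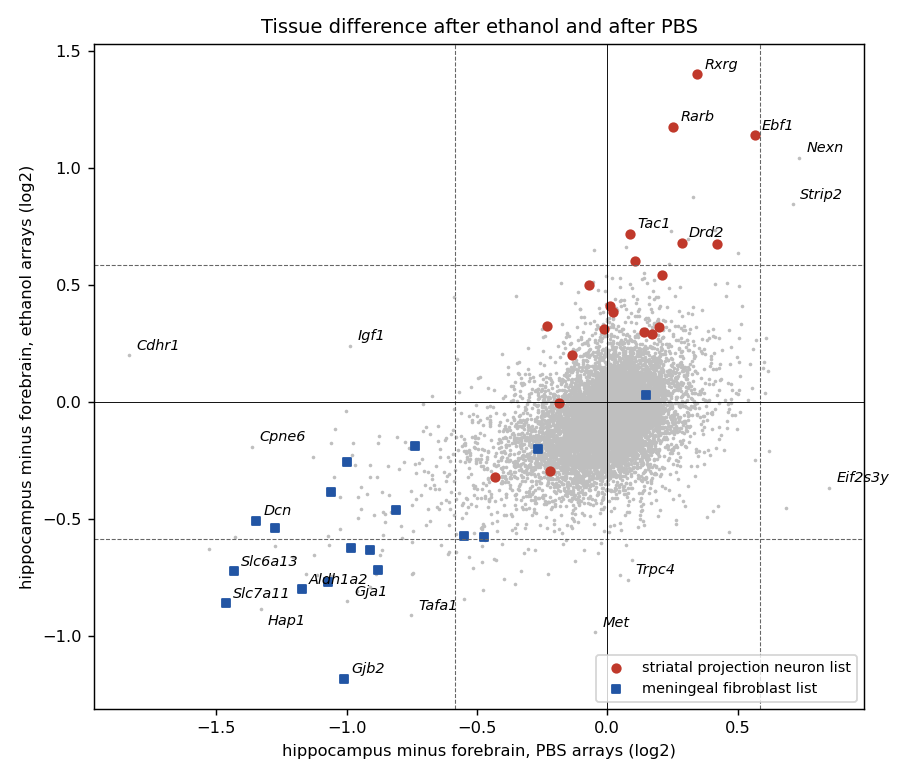
Hippocampus minus forebrain difference on the log2 scale after PBS (x axis) and after ethanol (y axis) for 11013 kept genes (grey), with the striatal list as red circles, the meningeal list as blue squares and dashed lines at 1.5-fold. Meningeal genes lie at the lower left, below 0 in both pairs for 17 of 18, whereas Rxrg (1.40 after ethanol, 0.35 after PBS) and Rarb (1.18 and 0.25) lie above the upper dashed line and to the left of the right one.

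Tested over all 4 arrays in limma, with tissue and treatment as terms and Benjamini-Hochberg adjustment at 0.05, 12 genes rose in hippocampus (0.109%) and 112 fell (1.02%). Only 1 residual degree of freedom remains in this model, and its p-values measure only the spread between these arrays. Of the genes 1.5-fold apart after ethanol, 5 of the 17 higher and 41 of the 59 lower were among them. The ethanol arrays that chose these genes also enter the limma fit. The overlap is thus partly built in and is no separate check. At an unadjusted p below 0.05 limma had 360 genes higher and 1306 lower. Without the treatment term limma called 0 and 0, with 232 and 1023 at an unadjusted p below 0.05 and a lowest Benjamini-Hochberg adjusted p of 0.0525. Without a trend in the variance it called 2 and 25. Of the 124 genes, 23 were called under all alternatives that kept the treatment term, 2 higher (Nexn and Strip2) and 21 lower. The lower ones included Gjb2, Slc7a11, Aldh1a2, Col1a2, Gja1, Igf2, Zic1, Zic2, Mrc1, F13a1, Dab2, Hap1, Tafa1 and Slc17a7.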

How the data were processed

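Values are the log2 expression values of Affymetrix probe sets as the authors deposited them. MAS5 is named in the submitters' processing notes, without a version. The log2 scale was read from the values, and the scaling between arrays is not given in the sources used here. Per the labels' protocols, 6 ug of Trizol-extracted total RNA was made into biotinylated cRNA. Of 35557 probe sets, 21789 carry 1 gene symbol, 1621 several and 12147 none, and 21698 gene IDs matched RefSeq with 0 symbols changed. The brightest probe set stood for each of 19938 genes. A gene was kept if its mean over the 4 arrays was at least 7.11, the middle of the probe set means.

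Differences were taken within a treatment. limma 3.58.1 (R 4.3.3, lmFit and eBayes with a trend) fitted tissue plus treatment over all 4 arrays, with Benjamini-Hochberg adjustment, and it was tested on simulated data. Replicates are single arrays, which may be technical. Named genes were the 15 highest and 15 lowest after ethanol, up to 10 a direction at 1.5-fold in both pairs, the 6 highest and 6 lowest differences between pairs, and up to 6 members a list by size. Other list members, and genes said to be so, were named after their values were seen. Members and the 30 lists were chosen with earlier results of these data known. Alternatives covered the scaling, the filter, the choice of probe set, the fold threshold, the variance trend and the treatment term.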

Additional observations from a re-analysis of the deposited data

Results flagged for a closer look

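A closer look is due where hippocampus minus forebrain was on opposite sides of 0 after ethanol and after PBS, by at least 0.19 each, which is 2 times the SD over genes of the closest pair of arrays (0.0941), as in 17 of the 175 named genes. With 1 array a group these differences between treatments were not tested. Cdhr1, a cadherin gene of olfactory bulb output neurons, differed by 0.20 after ethanol and -1.83 after PBS. Igf1, a growth factor gene, differed by 0.24 after ethanol and -0.99 after PBS, and Rasgrp1, a Ras exchange factor gene, by 0.45 after ethanol and -0.59 after PBS. Penk differed by 0.32 after ethanol and -0.23 after PBS, and the synaptic vesicle gene Synpr by 0.31 after ethanol and -0.25 after PBS.

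The others were lower in hippocampus after ethanol and higher after PBS. Among cortical regulators, Lhx2 differed by -0.33 after ethanol and 0.27 after PBS, Neurod2 by -0.38 after ethanol and 0.24 after PBS, Nfia by -0.20 after ethanol and 0.34 after PBS and Nfix by -0.22 after ethanol and 0.34 after PBS. The upper-layer gene Dok5 differed by -0.46 after ethanol and 0.20 after PBS, and the choroid plexus factor gene Otx2 by -0.23 after ethanol and 0.35 after PBS. Adamts3, a procollagen protease gene, differed by -0.49 after ethanol and 0.38 after PBS, with 0 of its 16 probe sets above 0 after ethanol. Gpc4, a glypican gene, differed by -0.44 after ethanol and 0.42 after PBS, and Rpa3, a replication protein gene, by -0.47 after ethanol and 0.41 after PBS, where its 2 probe sets disagreed. The Y-linked genes Uty, Eif2s3y and Kdm5d differed by -0.45 after ethanol and 0.69 after PBS, by -0.37 after ethanol and 0.85 after PBS and by -0.21 after ethanol and 0.62 after PBS.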

How the results depend on the processing

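Of 175 named genes 171 kept their sign with arrays centred on their medians and 172 after quantile normalization, and the 75th percentile filter left 65, all with their sign. List medians kept their sign in 24 of 28 lists centred, 26 of 28 after quantile normalization, 26 of 28 without a filter and 16 of 20 under the 75th percentile filter. The hippocampal list's median ranged from -0.10 to 0.10. The median of all kept genes was -0.06 as deposited, 0.03 centred and -0.02 after quantile normalization. Centring gave 32 higher and 31 lower genes at 1.5-fold, 17 lower in both pairs, and 21 higher and 45 lower limma calls. Quantile normalization gave 70 and 346 limma calls. Without a filter there were 3 genes 2-fold lower, 74 at 1.5-fold higher, 5 higher in both pairs, and 4 and 33 limma calls. The 75th percentile filter left 0 genes 2-fold lower, 8 and 17 at 1.5-fold, 0 and 8 in both pairs, and 23 higher limma calls. A 3-fold threshold left 0 genes in both directions. limma without the variance trend called 2 and 25 genes, and without the treatment term 0 and 0 (232 and 1023 at an unadjusted p below 0.05). The causes were not tested. The striatal median ranged from 0.40 to 0.57, the meningeal from -0.58 to -0.49, the septal from -0.72 to -0.15 and the retinoid from -0.04 to 0.88. No paired analysis was possible because the labels give no replicate numbers that tie arrays, beyond the treatment term of the limma model, which compares the tissues within each treatment. With 1 array a group no replicate could be left out. The number of arrays limits the precision.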
